A study of Mus musculus with 4 samples.

Results

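Interstitial collagens are the collagens that cells lay down between themselves, and 10 genes encoding their chains were followed here by name: *Col1a1* and *Col1a2* (the chains of collagen I), *Col3a1* (collagen III), *Col5a1* and *Col5a2* (collagen V), *Col6a1*, *Col6a2* and *Col6a3* (collagen VI), *Col8a1* (collagen VIII) and *Col14a1* (collagen XIV). The members were listed by symbol, with no measured value in the rule, and all 10 were found among the 31765 genes of the plaque files and the 29459 genes that the ligation files list between them. Single-cell RNA-seq was generated from mouse arteries in 2 experiments, each with 1 control and 1 mutant library, to examine what telomere damage in vascular smooth muscle cells (VSMCs) does to their phenotype. Plaques were dissected from the aortic root and arch and the carotid arteries of fat-fed mice lacking ApoE. Those mice all carried Myh11-CreERt2 and the Confetti reporter, which labels VSMCs and their progeny once tamoxifen has been given, and the study kept clusters that expressed the reporter. The control library (ApoE-/-) came from mice with those alleles alone, and the mutant library (Trf2T188A/ApoE-/-) from mice that also carried Sm22a-Trf2T188A. In the second experiment the left common carotid artery of male mice was ligated and collected on day 28 from wild-type littermates (control) or Sm22a-Trf2T188A mice (Trf2T188A), after removal of adventitia and of vessel that had not remodelled. All groups had a C57Bl6/J background. In both mutants a point mutant of TRF2, a telomere-binding protein, was driven by a minimal Sm22a promoter specific to arterial VSMCs, which cells of other lineages may also use once they take on a smooth muscle phenotype. The number of animals pooled in a library is not given in the sources used here.

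With 1 library per group no difference between genotypes could be tested across animals, no p-value is given, and genotype cannot be told apart from library. The intervals below are 95% intervals that cover counting error only. Those of shares of cells cover the draw of cells within 1 library, taken as independent. A difference outside its interval is one between these 2 libraries. The plaque libraries held 1502 ApoE-/- and 929 Trf2T188A/ApoE-/- cells with medians of 22765.5 and 24377 unique molecular identifiers (UMIs) per cell, and the ligation libraries 4967 control and 5392 Trf2T188A cells with medians of 8631 and 11153. The 2 ligation libraries shared 10 cell barcodes and the plaque libraries shared 0. *Terf2*, the gene that encodes TRF2, averaged between 0.163 and 0.189 UMIs per 10000 in the 4 libraries, and it was no higher in the mutant libraries. Whether transcripts of the transgene would be counted as *Terf2* is not given in the sources used here, so this level checks no label.

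Fibrillar collagens I, III and V co-assemble into the banded fibrils that give an artery and a fibrous cap their tensile strength, with collagen V inside the fibril limiting its width. Collagen VI forms beaded filaments around cells, collagen VIII forms short-chain networks below endothelium and in injured intima, and collagen XIV sits on the surface of fibrils. A contractile VSMC makes little of any of them, and a VSMC that leaves the contractile state in plaque or after injury is known for making more.

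On GRCm38 the 10 genes lie on 7 chromosomes. *Col3a1* (chr1:45311538-45349706, plus strand) and *Col5a2* (chr1:45374321-45503282, minus strand) are neighbours with a gap of 24.6 kb and face each other tail to tail. *Col6a2* (chr10:76595762-76623630) and *Col6a1* (chr10:76708792-76726168) lie on the minus strand of the same chromosome, 85.2 kb apart. *Col1a1* is at chr11:94936224-94953042 and *Col1a2* at chr6:4504814-4541544, both on the plus strand, so the chains of 1 fibril-forming protein come from separate chromosomes. Of the others, *Col6a3* is at chr1:90765923-90843971 (minus), *Col5a1* at chr2:27886425-28039514 (plus), *Col14a1* at chr15:55307750-55520803 (plus) and *Col8a1* at chr16:57624258-57754737 (minus).

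Sequence upstream of the RefSeq start is shown for 3 members that went different ways in the comparisons below, *Col1a2*, *Col3a1* and *Col8a1*. Each stretch is the part of the RefSeq start-site window on GRCm38.p6 that lies outside the annotated exons of its gene, read 5′ to 3′ on the gene's strand. In *Col1a2* (chr6:4505370-4505492, plus) and *Col8a1* (chr16:57754738-57754887, minus) capitals mark a GC box read on the gene strand as GGGCGG or on the opposite one. In *Col3a1* (chr1:45311388-45311537, plus) they mark the letters of a TATA box, TATAAA. The *Col1a2* stretch lies inside the gene span given above, since that annotation begins the gene further upstream than RefSeq does.
Col1a2: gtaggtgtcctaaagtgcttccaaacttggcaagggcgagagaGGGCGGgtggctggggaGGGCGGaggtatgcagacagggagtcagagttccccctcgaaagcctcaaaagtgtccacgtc
Col3a1: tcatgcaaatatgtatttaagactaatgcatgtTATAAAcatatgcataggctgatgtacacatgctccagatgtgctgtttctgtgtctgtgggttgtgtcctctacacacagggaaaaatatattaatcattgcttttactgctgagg
Col8a1: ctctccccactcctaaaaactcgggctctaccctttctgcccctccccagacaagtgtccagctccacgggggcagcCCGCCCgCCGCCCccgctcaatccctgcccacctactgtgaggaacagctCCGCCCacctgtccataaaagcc

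Windows were listed for 7 of the 10 members; *Col1a1*, *Col5a2* and *Col14a1* had none. Searched on both strands, GGGCGG was found in the windows of 4 of the 7 members (*Col1a2*, *Col5a1*, *Col6a2* and *Col8a1*) and in 35.7% of all 32851 windows of the same length. TATAAA was found in 1 member, *Col3a1*, and in 13.6% of all windows, and CCAAT, which overlaps neither of the other motifs, in 1 member, *Col1a2*, and in 37.4% of all windows. These are matches of letters and not sites.

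Cell states were rebuilt by clustering each experiment with the 10 members and all other listed collagen and collagen-handling genes left out, so no state was drawn from the genes measured. States carry the number of the study cluster whose markers they share. In plaque they were a contractile state (*Myh11*, *Acta2*, *Cnn1*) and Cluster 2-like (*Timp1*, *Spp1*, *Thbs1*), Cluster 3-like (*Itih4*, *Wnt16*, *Fgl2*), Cluster 4-like (*C3*, *Lcn2*, *Cp*), Cluster 5-like (*Dmd*, *Nav2*), Cluster 8-like (the cartilage genes *Acan*, *Comp*, *Chad* and *Sox9*) and Cluster 10-like cells (*Adamtsl1*, *Mdga2*). After ligation they were Cluster 0-like (*Sparcl1*, *Pln*), Cluster 1-like (*Postn*, *Actg2*, *Igfbp2*), Cluster 2-like (*Lum*, *Dcn*, *Tnfrsf11b*) and Cluster 3-like cells (the interferon-response genes *Ifit3* and *Isg15*), besides Endothelial-like and Immune-like cells. A further plaque class, Cluster 12-like, had 35 cells in one library and 1 in the other and was not compared between genotypes on its own.

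In plaque the 10 members together were lowest in contractile cells, at 30.0 UMIs per 10000 in ApoE-/- and 34.8 in Trf2T188A/ApoE-/- cells. Their sum was 220 and 224 for Cluster 2-like cells. It was 334 and 260 for Cluster 8-like cells. The members thus made up 0.31% and 0.34% of all UMIs of contractile cells and 3.03% and 2.48% of those of Cluster 8-like cells. The ratio of Cluster 8-like to contractile level was 11.1 in ApoE-/- and 7.46 in Trf2T188A/ApoE-/- cells. The values that follow are mean UMIs per 10000, the control library first, and since the kit counts molecules at their 3′ end they were not scaled by length.

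**Figure D1:**
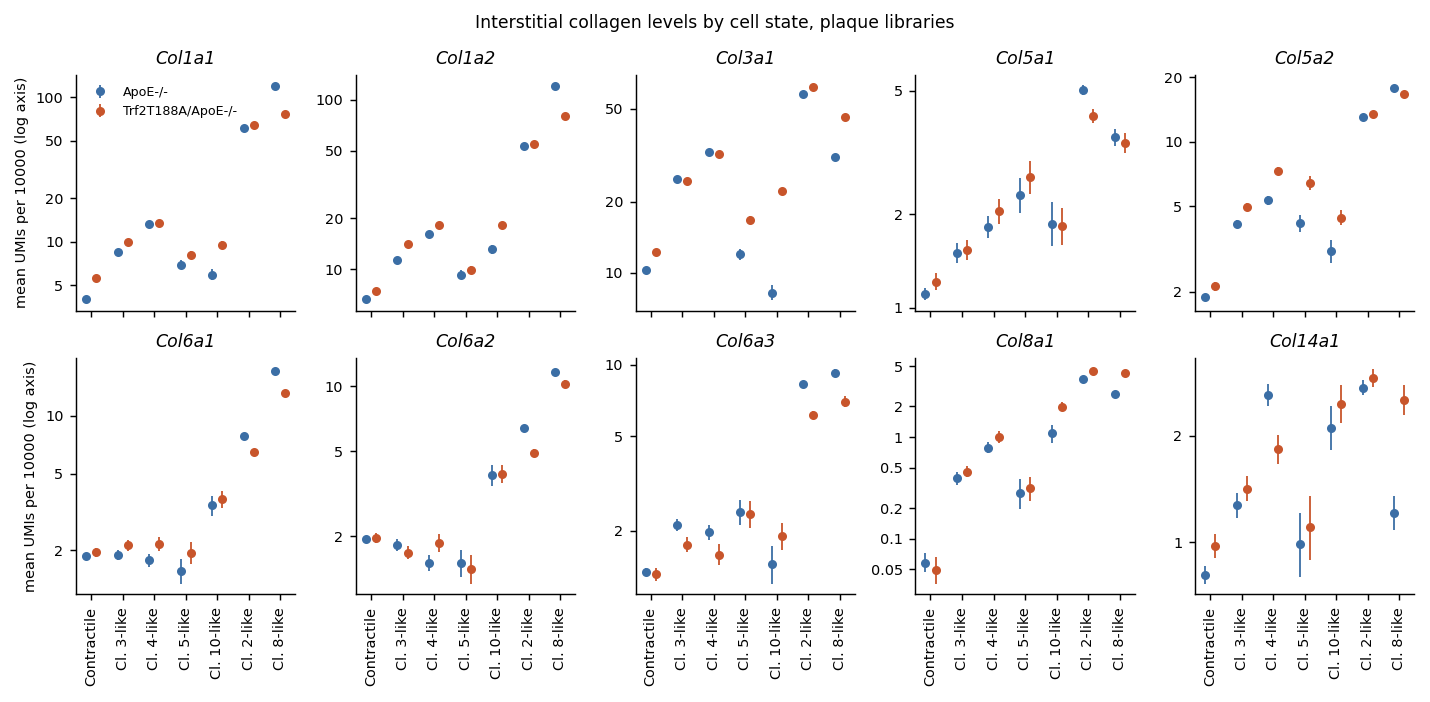
Mean UMIs per 10000 of each member (log axis, a different range in each panel) by plaque cell state, ApoE-/- in blue and Trf2T188A/ApoE-/- in orange; bars are 95% Poisson intervals for counting error. Among the 7 states drawn, each member has its highest mean in Cluster 2-like or Cluster 8-like cells, and in Cluster 8-like cells the mutant library is lower for *Col1a1* and *Col1a2* and higher for *Col3a1* and *Col14a1*.

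The collagen I chains had the highest means in Cluster 8-like cells, and *Col3a1* in contractile, Cluster 3-like and Cluster 4-like cells. *Col1a1* was at 4.04 and 5.58 in contractile cells, 8.54 and 9.89 for Cluster 3-like, and 13.2 and 13.4 for Cluster 4-like cells. It reached 61.4 and 64.5 in Cluster 2-like cells, with 119 and 76.1 among Cluster 8-like ones. *Col1a2* ran in the same order from 6.68 and 7.41 in contractile cells to 120 and 80.3 in Cluster 8-like cells. *Col3a1* did not follow that order: it was highest in Cluster 2-like cells (57.9 and 62.0), and its level in Cluster 8-like cells (31.2 and 46.0) was below that of Cluster 4-like cells in ApoE-/- (32.6) and above it in Trf2T188A/ApoE-/- plaques (31.9). In ApoE-/- cells the step from contractile to Cluster 8-like was 4.58 on the log2 scale for *Col1a1*, 3.98 for *Col1a2* and 1.51 for *Col3a1*.

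Collagen V and collagen VI chains had lower means. *Col5a2* was at 1.89 and 2.12 in contractile, 13.1 and 13.5 in Cluster 2-like cells, with 17.8 and 16.7 among Cluster 8-like ones, whereas its partner chain *Col5a1* peaked in Cluster 2-like cells at 5.03 and 4.15. The 3 collagen VI chains were between 1.32 and 1.97 in contractile cells and were all highest in Cluster 8-like cells, *Col6a1* at 17.1 and 13.1, *Col6a2* at 11.7 and 10.3 and *Col6a3* at 9.25 and 6.99. *Col8a1* was near absent from contractile cells (0.06 and 0.05) and at 3.69 and 4.48 in Cluster 2-like cells. Thinned to 8000 UMIs a cell, 3.6% and 2.7% of contractile cells and 53.2% and 65.8% of Cluster 2-like cells had a *Col8a1* UMI.

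*Col14a1* was the member least like the others. Its means were between 0.81 and 2.91 in the 7 states drawn, and its highest ApoE-/- value, 5.78, was in the 35 Cluster 12-like cells. The 8 fibroblast markers summed to 27.9 UMIs per 10000 in those cells, led by *Dpt* at 9.14, against 0.39 in contractile ApoE-/- cells. *Dpt*, *Scara5* and *C7* were also among the markers that named Cluster 12-like cells, so that sum was partly fixed by the naming. Over 21 means (clusters by library), the log2 level of *Col14a1* had a Pearson r of 0.431 with that of the summed members, while the other 9 ranged from 0.829 for *Col6a2* to 0.993 for *Col1a1*. Each member is part of that sum, so its r is partly built in. *Col1a1*, *Col1a2* and *Col3a1* held 24.5%, 27.9% and 25.2% of the members' UMIs in ApoE-/- cells. Points from one library also share its depth, so this r is a description.

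Collagen transcripts were uneven between single cells of plaque. Of 1410 ApoE-/- cells thinned to 8000 UMIs, the 141 with most *Col1a1* held 70.3% of its UMIs, and the 81 highest of 807 Trf2T188A/ApoE-/- cells held 66.7%. For *Col8a1* the shares were 89.7% and 86.3% and for *Col3a1* 43.9% and 41.1%. After ligation, with cells thinned to 5000 UMIs, the corresponding shares of *Col1a1* were 37.6% and 38.3%. The *Col1a1* UMIs of plaque were thus more concentrated in its highest cells than those of ligated arteries, in either genotype. Thinned cells with no *Col1a1* UMI were 6.1% and 5.8% in plaque, with 9.98% and 8.99% after ligation. The thinned depth and the selection of cells differ between the experiments.

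Across single plaque cells the members varied together. All 45 pairs had a positive Spearman's rho in both thinned libraries, with medians of 0.297 and 0.343, and the highest pair was *Col1a1* with *Col1a2* at 0.627 and 0.716. Cells of one library share its preparation and these rho carry no p-value. Within single states the medians differed widely. They were 0.069 and 0.087 in contractile cells and 0.431 and 0.323 in Cluster 2-like cells, and *Col1a1* with *Col1a2* reached 0.911 and 0.864.

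The genotypes were first compared over all plaque cells, by dividing the mutant mean (plus 1) by the control mean (plus 1) and taking log2. A gene was counted as past the fold at 0.25 in either direction, the study's limit, if at least 10% of cells of either library had a UMI. *Col3a1* was at 20.2 and 26.3 (log2 ratio 0.36, 0.34 to 0.38), *Col5a2* at 4.69 and 6.23 (0.35, 0.31 to 0.38) and *Col8a1* at 0.79 and 1.23 (0.31, 0.28 to 0.35). These 3 of 10 members were higher in the mutant library and 0 lower, where 0.57% of 10526 tested genes were higher and 0.247% lower. A fold on mean plus 1 is reached more easily by abundant genes. Among the genes averaging at least 1 UMI per 10000, 3.13% were higher and 1.4% lower.

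The 7 other members lay between -0.04 and 0.19 over all plaque cells. The median of the 10 was 0.13, beside 0.00 for all tested genes. The libraries differ in make-up: contractile cells were 47.8% of ApoE-/- and 35.0% of Trf2T188A/ApoE-/- cells, and Cluster 2-like cells 10.7% and 14.3%. With the mutant states weighted to the control library's shares, *Col3a1* came to 0.24, *Col5a2* to 0.16, *Col8a1* to 0.12 and *Col1a1* to -0.07, so none of the 3 remained past the fold. In that weighting the 1 mutant Cluster 12-like cell stood for the 2.33% of control cells in that class. Values without it were not computed. Whether fewer contractile cells were in the plaques or fewer were recovered from them was not tested.

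Within contractile cells *Col1a1* was at 4.04 in the 718 ApoE-/- and 5.58 in the 325 Trf2T188A/ApoE-/- cells (log2 ratio 0.38, 0.32 to 0.45). It was the single member past the fold in this state, where 0.238% of tested genes were higher and 0.287% lower (1.09% and 1.37% of abundant genes). *Col3a1* was at 10.3 and 12.2 (0.23, 0.19 to 0.27), just inside the fold, and *Col8a1* was seen in too few cells to be tested. Cell medians of *Col1a1* were 3.55 and 3.94, the highest cells held 31.4 and 65.8, and the ratio was 0.16 when UMIs were summed over cells and 0.21 as a difference of mean log values. The 8 fibroblast markers summed to 0.39 and 0.57, and the 10 immune markers to 0.115 and 0.383. Their part in the *Col1a1* value was not tested.

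**Figure D2:**
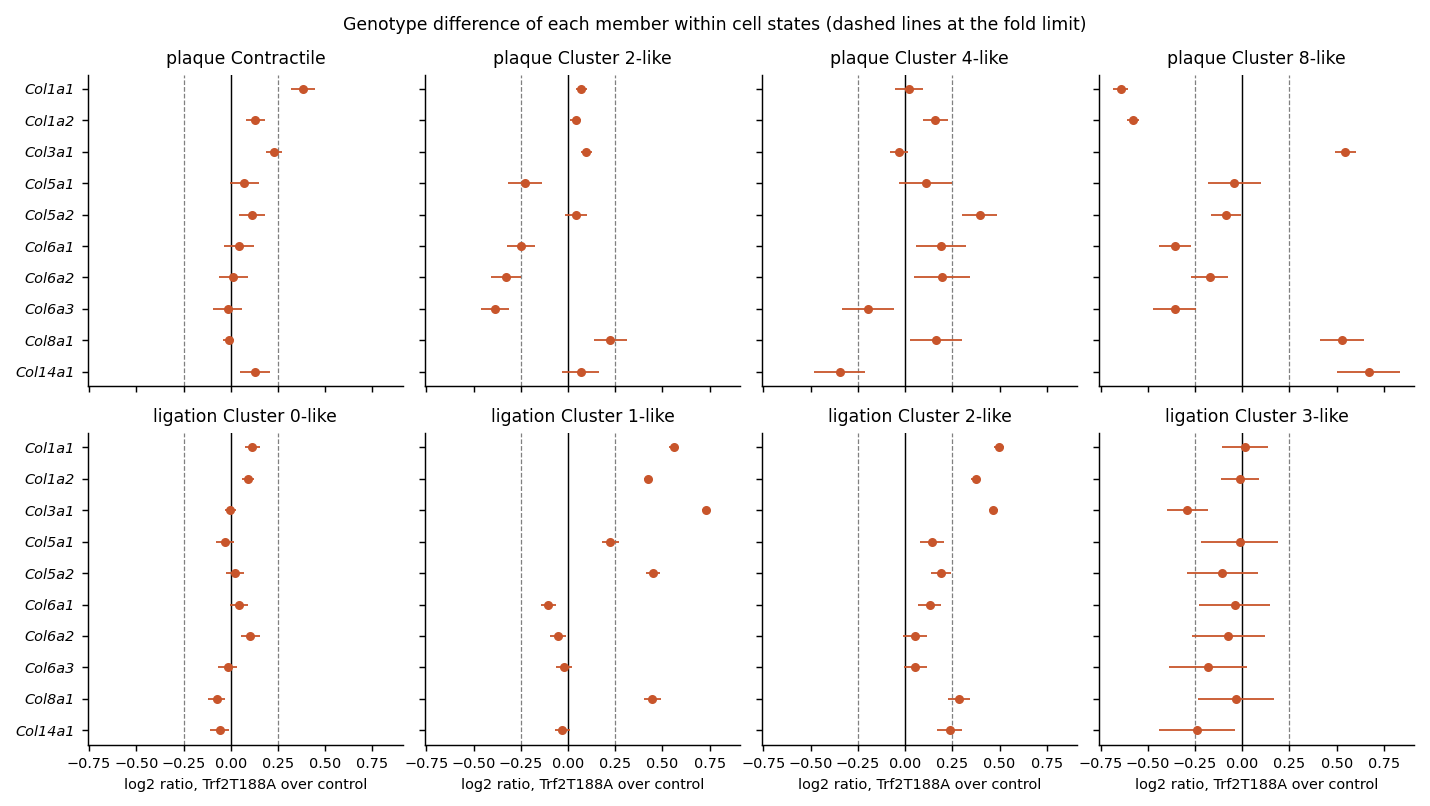
Log2 ratio of mean UMIs per 10000 (plus 1), Trf2T188A over control, for each member in 4 plaque and 4 ligation cell states; bars are 95% counting intervals and dashed lines mark the fold of 0.25. Plaque Cluster 8-like cells show *Col1a1* at -0.64 and *Col3a1* at 0.55, while in ligation Cluster 1-like cells both are on the positive side, at 0.56 and 0.73.

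In Cluster 2-like cells the fibrillar chains I and III barely differed between the libraries, and the collagen VI chains were lower in the mutant one. *Col1a1* (61.4 and 64.5), *Col1a2* (53.3 and 54.8) and *Col3a1* (57.9 and 62.0) had log2 ratios of 0.07, 0.04 and 0.10. *Col6a3* was at 8.31 and 6.13 (-0.39, -0.46 to -0.31), *Col6a2* at 6.38 and 4.88 (-0.33, -0.41 to -0.25) and *Col6a1* at 7.88 and 6.46 (-0.25, -0.33 to -0.17). These 3 were the members past the fold, all lower, where 1.63% of tested genes were lower and 1.01% higher (8.47% and 5.08% of abundant genes). *Col6a3* stayed past the fold under each alternative processing. *Col6a2* was at -0.19 in cells thinned to a common depth and clustered anew. *Col6a1* ranged from -0.06 to -0.28 and was past the fold in 3 of 10 alternatives.

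Cluster 4-like cells differed in other members. *Col5a2* was at 5.32 and 7.31 (log2 ratio 0.39, 0.30 to 0.49), and *Col14a1* at 2.60 and 1.83 (-0.35, -0.48 to -0.21). Of tested genes 1.77% were higher and 1.24% lower (7.79% and 6.01% of abundant genes), so 1 member each way is not far from the background of abundant genes. *Col14a1* was at -0.01 in thinned cells, which were clustered anew and gave a Cluster 4-like class of 207 and 144 cells. *Col1a1* (13.2 and 13.4) and *Col3a1* (32.6 and 31.9) differed by less than counting error.

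In the remaining plaque states the members past the fold were all on the higher side, and no alternative processing was run for these states. In Cluster 3-like cells *Col1a2* was at 11.3 and 14.04 (log2 ratio 0.29, 0.23 to 0.35), the 1 member past the fold, where 1.04% of tested genes were higher and 0.581% lower (5.59% and 2.94% of abundant genes). The 16 immediate-early genes summed to 102 and 149 there, and their part was not tested. In Cluster 5-like cells, the shallowest state at medians of 10120 and 7506.5 UMIs, *Col3a1* was at 11.95 and 16.8 (0.46) and *Col5a2* at 4.17 and 6.39 (0.52), where 4.52% were higher and 5.08% lower (12.2% and 14.5% of abundant genes). There the immediate-early genes summed to 204 and 258, with 7 of 16 higher, and their part was not tested either.

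Cluster 10-like cells, 42 and 40, had 5 members higher and 0 lower. *Col3a1* was at 8.21 and 22.2 (log2 ratio 1.33, 1.20 to 1.46), the largest member ratio in any state of either experiment, *Col1a1* at 5.92 and 9.50 (0.60), *Col8a1* at 1.08 and 1.99 (0.52), *Col1a2* at 0.45 and *Col5a2* at 0.41. Of tested genes 3.15% were higher and 4.54% lower (11.2% and 15% of abundant genes). The fibroblast markers summed to 1.11 and 2.08 in these cells, with 3 of 6 tested markers higher, and the immediate-early genes to 136 and 112, with 8 of 16 lower. Median depth was 18989.5 and 25420.5 UMIs. The part of these in the collagen values was not tested. Among cells of no named state *Col1a1* was at 5.77 and 7.08 (0.26), the 1 member past the fold, where 1.02% were higher and 0.592% lower (3.95% and 2.38% of abundant genes).

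Cluster 8-like cells, the richest in collagen, gave the largest differences among the named plaque states of over 60 cells in both libraries, and they went both ways. *Col1a1* was at 119 in the 81 ApoE-/- cells and 76.1 in the 64 Trf2T188A/ApoE-/- cells (log2 ratio -0.64, -0.68 to -0.61), and *Col1a2* at 120 and 80.3 (-0.58, -0.61 to -0.55). *Col3a1* was at 31.2 and 46.0 (0.55, 0.49 to 0.60). Collagen I chains were thus lower and the collagen III chain higher in the mutant library. The sizes depended on the processing: *Col1a1* ranged from -1.01 to -0.29 and *Col1a2* from -0.98 to -0.35 over the alternatives.

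Further Cluster 8-like members fell on both sides. *Col6a1* (17.1 and 13.1) and *Col6a3* (9.25 and 6.99) both had a log2 ratio of -0.36, while *Col6a2*, at 11.7 and 10.3, was at -0.17. In cells thinned and clustered anew *Col6a3* was at -0.20. *Col8a1* was at 2.63 and 4.23 (0.53, 0.41 to 0.64) and *Col14a1* at 1.21 and 2.52 (0.67, 0.50 to 0.84), and the collagen V chains differed by less than 0.1. In all 3 members were higher and 4 lower, where 3.02% of tested genes were higher and 1.92% lower (15.7% and 9.1% of abundant genes). The median of the 10 was -0.13, beside 0.00 for all tested genes. The 8 fibroblast markers summed to 3.33 in ApoE-/- and 5.80 in Trf2T188A/ApoE-/- cells, led by *Smoc2* at 2.40 and 3.58 with *C7* at 0 in the control library, and their part in these values was not tested.

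The cells themselves overlapped widely. The 10th percentile, median and 90th percentile of *Col1a1* were 7.19, 75.8 and 275 UMIs per 10000 in ApoE-/- Cluster 8-like cells and 0.30, 38.2 and 217 in the mutant ones. For *Col1a2* they were 46.3, 98.1 and 234 against 14.5, 56.3 and 177, and for *Col3a1* 7.64, 20.6 and 61.3 against 4.13, 29.3 and 94.5. Medians thus moved the same way as means for all 3 chains. *Col8a1* had a median of 0 in both libraries, so its difference rests on few cells, and as a difference of mean log values it was 0.14.

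Because *Col1a1* and *Col3a1* were read from the same cells, they could also be set against each other cell by cell, which needs no scaling by library. Among Cluster 8-like cells, *Col1a1* had more UMIs than *Col3a1* in 64 of 81 from ApoE-/- plaques (79.0%, exact binomial interval 68.5 to 87.3) and in 33 of 64 Trf2T188A/ApoE-/- cells (51.6%, 38.7 to 64.2). Summed over cells there were 3.801 *Col1a1* UMIs per *Col3a1* UMI (3.71 to 3.89) against 1.504 (1.47 to 1.54). In every other plaque state drawn the 2 intervals of the share of cells overlapped. Those of the summed UMI ratio overlapped in contractile, Cluster 2-like and Cluster 4-like cells only. That ratio was lower in the mutant library in Cluster 10-like (0.702 against 0.425) and Cluster 5-like cells (0.560 against 0.446). It was higher in Cluster 3-like cells (0.337 against 0.423). The intervals of shares take the cells of a library as independent, and those of the UMI ratio cover counting error. Neither overlap nor its absence thus tests genotype. Cluster 2-like cells had 45.6% and 42.9% with more *Col1a1*, and contractile cells 8.9% and 9.2%.

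**Figure D3:**
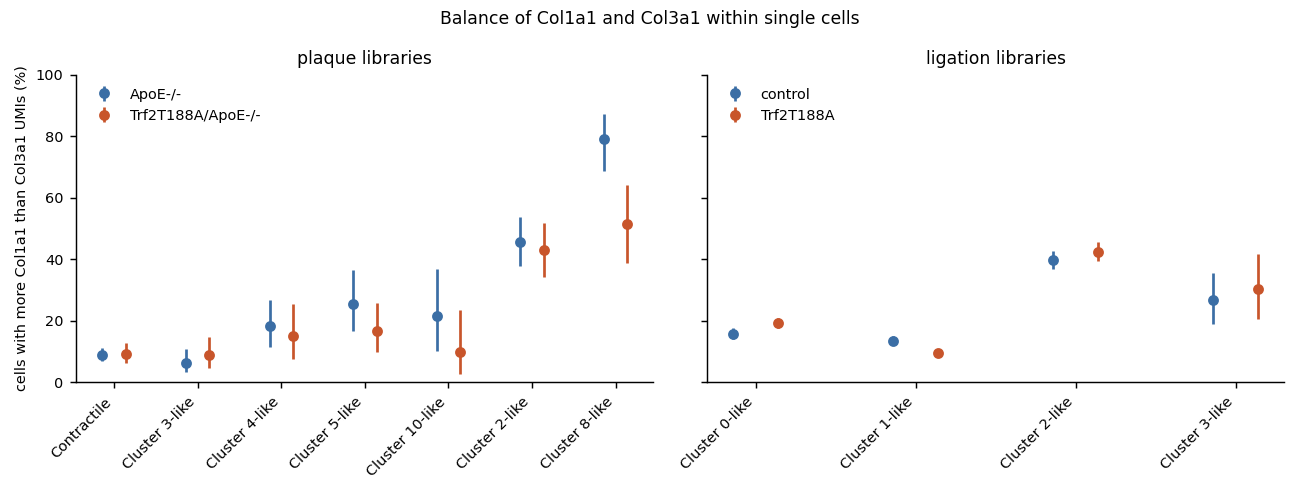
Percent of cells with more *Col1a1* than *Col3a1* UMIs, by cell state, in the plaque libraries (left) and ligation libraries (right), control in blue and Trf2T188A in orange; bars are 95% Clopper-Pearson intervals. Cluster 8-like cells stand at 79.0% and 51.6%, and ligation Cluster 1-like cells at 13.5% and 9.6%.

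Within Cluster 8-like cells *Col1a1* was lower in the mutant library with and without a detected Confetti UMI. Cells with a reporter UMI were at 99.9 (50 cells) and 76.1 (52 cells) and those without at 151 (31 cells) and 76.3 (12 cells). *Col3a1* was at 35.1 and 42.2 in cells with and at 24.8 and 62.1 in cells without a reporter UMI. In Cluster 2-like cells *Col1a1* was higher in ApoE-/- cells with a UMI of *Cdkn2a*, the gene of the senescence marker p16, at 102 (30 cells) against 52.0 (130 cells), and at 71.9 and 61.8 in the mutant library. Those 30 cells had a median of 58476 UMIs and the other 130 a median of 31140, so detection of *Cdkn2a* went with depth.

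**Figure D4:**
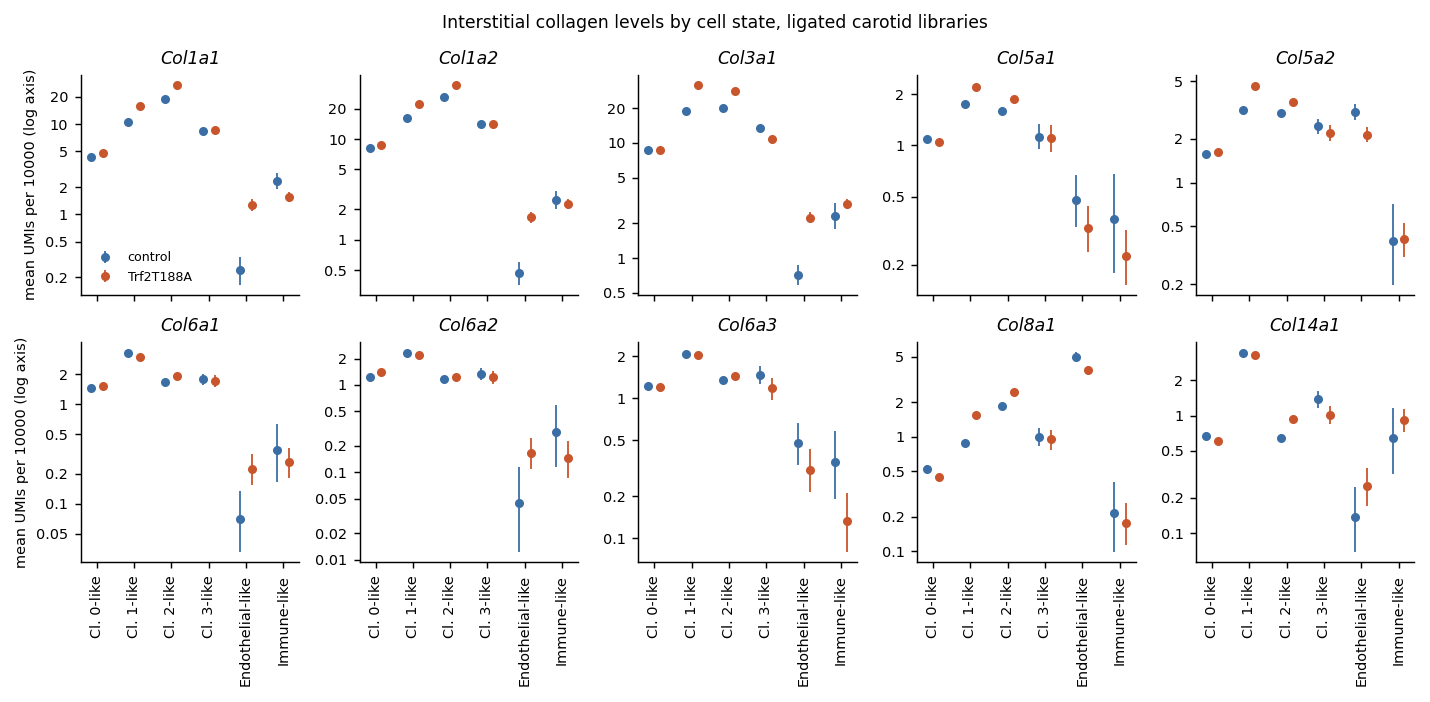
Mean UMIs per 10000 of each member (log axis, a different range in each panel) by cell state of the ligated carotid, control in blue and Trf2T188A in orange; bars are 95% Poisson intervals. The fibrillar chains are higher in Trf2T188A Cluster 1-like and Cluster 2-like cells, and *Col8a1* is highest in Endothelial-like cells.

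After ligation the members together were lowest, among the smooth muscle states, in Cluster 0-like cells. They summed to 29.0 and 30.1 UMIs per 10000 in Cluster 0-like cells (control first), and to 62.4 and 88.9 in Cluster 1-like cells. The sums were 76.8 and 103 in Cluster 2-like cells, with 46.6 and 42.8 among Cluster 3-like ones. The ratio of Cluster 2-like to Cluster 0-like was 2.65 in control and 3.44 in Trf2T188A cells. No ligation state reached the level of plaque Cluster 2-like cells. The experiments were processed separately, so that statement is of levels only.

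The chains again had separate peaks. *Col1a1* was highest in Cluster 2-like cells at 19.0 and 27.2, as was *Col1a2* at 26.4 and 34.4. *Col14a1* was highest in Cluster 1-like cells at 3.40 and 3.31, against 0.65 and 0.94 in Cluster 2-like cells. The 3 collagen VI chains were also highest in Cluster 1-like cells, *Col6a1* at 3.28 and 2.98. *Col3a1* was at 18.8 and 31.8 in Cluster 1-like cells, with 20.3 and 28.4 among Cluster 2-like ones, so the higher of those states was not the same in the 2 libraries.

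*Col8a1* and *Col5a2* were not confined to smooth muscle. *Col8a1* was highest in Endothelial-like cells, at 4.98 and 3.83, against 0.45 to 2.47 in the smooth muscle states and 0.21 and 0.18 in Immune-like cells. Thinned to 5000 UMIs, 66.7% and 56.2% of Endothelial-like and 6.7% and 12.8% of Immune-like cells had a *Col8a1* UMI. *Col5a2* was at 3.06 and 2.13 in Endothelial-like cells. *Col1a1* had a UMI in 10.5% and 15.6% of thinned Endothelial-like and 20% and 19.1% of Immune-like cells, cells that should lack it, against 77.9% to 98.7% in the smooth muscle states. Endothelial-like cells numbered 62 and 65 and Immune-like cells 20 and 58.

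Over all smooth muscle cells *Col3a1* was at 15.8 in control and 20.9 in Trf2T188A cells (log2 ratio 0.38, 0.37 to 0.39), and *Col1a1* at 10.5 and 13.2 (0.30, 0.29 to 0.32). These 2 of 10 members were past the fold and 0 lower, where 0.802% of tested genes were higher and 0.255% lower (3.29% and 1.14% of abundant genes). *Col1a2* was at 0.20 and *Col5a2* at 0.19, and collagen VI chains were between -0.07 and -0.01. Cluster 0-like cells, lowest in collagen, were 31.2% of control and 42.1% of Trf2T188A cells. At the control library's shares *Col1a1* came to 0.47 and *Col3a1* to 0.52, and the sum of the 10 to 0.40 in place of 0.26.

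The difference over all smooth muscle cells was not shared by every state. In Cluster 0-like cells, 1549 control and 2269 Trf2T188A, the members lay between -0.08 and 0.11, and 0 of 10 were past the fold in either direction, where 0.781% of tested genes were higher and 0.156% lower (3.4% and 0.776% of abundant genes). *Col3a1* was at 8.69 and 8.67 there (-0.0023, -0.03 to 0.03), and *Col1a1* at 4.36 and 4.81.

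Cluster 1-like cells, 2064 control and 1910 Trf2T188A, had the largest differences among the ligation smooth muscle states. *Col3a1* was at 18.8 and 31.8 (log2 ratio 0.73, 0.71 to 0.75), the 8th highest ratio of 8032 tested genes. *Col1a1* was at 10.5 and 15.9 (0.56, 0.54 to 0.59), and *Col1a2* at 16.3 and 22.2 (0.42, 0.40 to 0.44). All 3 of these fibril-forming chains were thus higher in the mutant library, *Col3a1* most.

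*Col5a2*, at 3.14 and 4.65 (0.45, 0.41 to 0.49), and *Col8a1*, at 0.88 and 1.56 (0.45, 0.40 to 0.49), were also past the fold. *Col5a1* was at 1.75 and 2.21 (0.22, 0.18 to 0.27), inside it. The collagen VI chains were at -0.10, -0.05 and -0.02, and *Col14a1*, at 3.40 and 3.31, at -0.03. In all 5 of 10 members were past the fold and 0 lower, where 1.49% of tested genes were higher and 0.784% lower (6.22% and 3.6% of abundant genes). The median of the 10 was 0.32, beside -0.01 for all tested genes, and each of the 5 stayed past the fold under each alternative processing.

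The *Col3a1* difference ran through the range of Cluster 1-like cells. The 10th percentile, median and 90th percentile were 5.56, 14.8 and 37.5 UMIs per 10000 in control and 11.1, 28.1 and 57.8 in Trf2T188A cells. *Col1a1* had 2.39, 7.92 and 20.2 against 5.10, 12.3 and 30.0. Cells with more *Col1a1* than *Col3a1* were 13.5% (12.1 to 15.1) of control and 9.6% (8.3 to 10.99) of Trf2T188A cells. Median depth was higher in the mutant library in every smooth muscle state. The values are scaled per cell, and in cells thinned to 5000 UMIs and clustered anew the median of the 10 was 0.29.

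Cluster 2-like cells, 1152 control and 1011 Trf2T188A, had 4 of those 5 members past the fold. *Col1a1* was at 19.0 and 27.2 (log2 ratio 0.50, 0.47 to 0.52), *Col3a1* at 20.3 and 28.4 (0.47, 0.44 to 0.49), *Col1a2* at 26.4 and 34.4 (0.37, 0.35 to 0.40) and *Col8a1* at 1.85 and 2.47 (0.28, 0.23 to 0.34). No member was lower past the fold, where 1.08% of tested genes were higher and 0.617% lower (4.69% and 2.99% of abundant genes). *Col1a1* had the 6th highest ratio of 8266 tested genes. *Col5a2*, the member inside the fold here, was at 0.19, *Col14a1* at 0.24 and the collagen VI chains between 0.05 and 0.13. The *Col1a1* to *Col1a2* ratio of UMIs was higher in the mutant library in every ligation smooth muscle state. It was 0.71 against 0.64 in Cluster 1-like cells, with 0.78 against 0.71 among Cluster 2-like ones. In Cluster 0-like cells it was 0.547 (0.536 to 0.558) against 0.523 (0.508 to 0.539). In Cluster 3-like cells it was 0.643 (0.594 to 0.696) against 0.604 (0.560 to 0.652). The counting intervals thus overlapped in Cluster 0-like and Cluster 3-like cells.

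Cluster 3-like cells, 120 control and 79 Trf2T188A, had no such difference. *Col3a1* was at 13.4 and 10.8 (log2 ratio -0.29, -0.40 to -0.18), the 1 member past the fold, where 2.23% of tested genes were higher and 2.86% lower (7.88% and 8.68% of abundant genes). *Col1a1* (8.49 and 8.58) and *Col1a2* (14.18 and 14.04) differed by less than counting error. The 10 immune markers summed to 4.44 in control and 0 in Trf2T188A cells of this state. In control cells *Cd74* alone was at 4.38, and 5 of the 10 were at 0. Without the 5% of cells with the highest doublet scores *Col3a1* was at -0.15.

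Markers of other cell types were summed in the 2 ligation states where collagens differed most. The fibroblast markers summed to 0.49 and 0.67 in Cluster 1-like cells, with 2.69 and 2.56 among Cluster 2-like ones, with *Scara5* at 0 in both mutant states. The endothelial markers summed to 0.14 and 0.14 in Cluster 1-like cells. Immediate-early genes, which rise during tissue digestion, summed to 179 and 164 in Cluster 1-like cells, with 219 and 187 among Cluster 2-like ones, and to 193 and 228 in plaque Cluster 8-like cells. Their part in the collagen values was not tested.

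Collagens are hydroxylated, folded and glycosylated in the endoplasmic reticulum, trimmed and crosslinked outside the cell, bound by receptors and cleared by proteases, and 5 lists of such genes and of the other collagens were measured beside the members. They hold 73 genes in the plaque files and 71 in the ligation files. In ligation Cluster 1-like cells 3 of 46 tested genes were past the fold, all higher, and in Cluster 2-like cells 3 of 48. Of all tested genes 1.49% and 1.08% were higher in these states (6.22% and 4.69% of abundant genes). The pathway genes past the fold were the same 3 in both, *Lox*, which crosslinks collagen (4.22 and 6.53 in Cluster 1-like cells, log2 ratio 0.53), the gelatinase gene *Mmp2* (0.32) and *Ctsk*, a collagen-degrading cathepsin (0.26). In Cluster 2-like cells *Mmp2* was at 0.35, *Lox* at 0.33 and *Ctsk* at 0.29.

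None of the 20 tested synthesis genes of the endoplasmic reticulum was past the fold in either ligation state. Of all tested genes 1.49% and 1.08% were higher there and 0.784% and 0.617% lower. The median ratio of the synthesis genes was 0.04 for Cluster 1-like and 0.06 for Cluster 2-like cells. The other collagens had medians of 0.03 and 0.03, and the receptors of -0.04 and -0.02. In Cluster 0-like cells 0 of 45 genes on these lists were past the fold, where 0.781% of all tested genes were higher and 0.156% lower. Over all smooth muscle cells it was 0 of 47, where 0.802% were higher and 0.255% lower. Both counts of 0 are near the background.

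**Figure D5:**
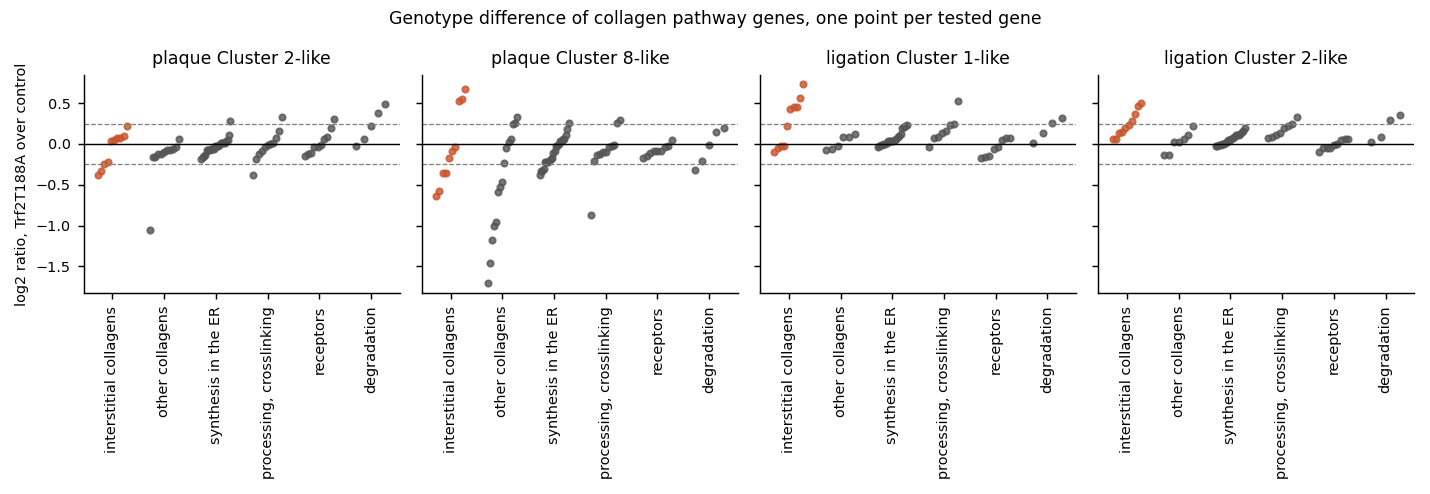
Log2 ratio, Trf2T188A over control, of each tested gene on the member list (orange) and 5 collagen pathway lists (grey, sorted within each list), in 2 plaque and 2 ligation states; dashed lines mark the fold of 0.25. In plaque Cluster 8-like cells the other collagens reach down to -1.71, and in the ligation states few pathway genes leave the dashed band.

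In plaque Cluster 8-like cells 5 of 62 tested pathway genes were higher and 14 lower, beside 3.02% and 1.92% of all tested genes (15.7% and 9.1% of abundant genes). The cartilage collagens were the lowest of all: *Col11a1* was at 21.2 and 5.79 (log2 ratio -1.71), *Col10a1* at 2.76 and 0.37 (-1.45), *Col9a1* at 5.22 and 1.76 (-1.18) and *Col2a1* at 293 and 145 (-1.01). Of 15 tested other collagens 8 were lower and 2 higher, with a median of -0.47. The members *Col1a1*, *Col1a2*, *Col6a1* and *Col6a3* were also past the fold on the lower side, by less, and *Col3a1*, *Col8a1* and *Col14a1* on the higher side. Whether members varied with the cartilage collagens over cells was not tested.

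Of 22 synthesis genes of the endoplasmic reticulum, 4 were lower in mutant Cluster 8-like cells, 1 was higher and 17 lay within the fold, with a median of -0.10. *Serpinh1*, a collagen chaperone, was at 15.0 and 11.7 (-0.34), *P4hb* at 4.63 and 3.47 (-0.33) and *Crtap* at 1.93 and 1.26 (-0.37). The higher one was *P3h2* at 0.26. *Pcolce2*, which aids trimming of procollagen, was at 10.0 and 5.02 (-0.87), and *Mmp2* at 5.10 and 3.87 (-0.33). *Col12a1*, like *Col14a1* a fibril-surface collagen, was higher at 1.52 and 2.17 (0.33).

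Plaque Cluster 2-like cells had 5 of 59 tested pathway genes higher and 2 lower, beside 1.01% and 1.63% of all tested genes (5.08% and 8.47% of abundant genes). The higher ones included *Ctsk* at 0.84 and 1.60 (log2 ratio 0.50), *Mmp2* at 2.91 and 4.09 (0.38) and *Adamts2*, which trims procollagen, at 1.60 and 2.26 (0.33). *Col2a1* was lower at 6.36 and 2.55 (-1.05), as was *Loxl2*, a crosslinking enzyme gene (-0.38). Among Cluster 4-like cells 5 of 57 were higher and 0 lower, led by *Col2a1* at 0.12 and 3.99 (2.15). There 1.77% of all tested genes were higher and 1.24% lower (7.79% and 6.01% of abundant genes). In contractile cells 0 of 50 were past the fold in either direction, near the background of 0.238% higher and 0.287% lower.

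The genes whose level over clusters and libraries most resembled that of the summed members were named by Pearson r of log2 means. In plaque, over 21 means and 3250 genes, they were *AI506816* (0.968), *Fxyd5* (0.956), *Fkbp10* (0.955), *Loxl3* (0.953) and *Spp1* (0.952), where *Fxyd5* and *Spp1* are markers that named Cluster 2-like cells. After ligation, over 12 means and 2939 genes, they were *Fbn1* (0.981), *Pcolce* (0.971), *Antxr1* (0.970), *Fbln5* (0.961) and *Chsy1* (0.959). No gene was among the 5 in both experiments. Among the members, each of which is part of the sum, the one least like it after ligation was *Col8a1* at 0.248. Its Endothelial-like level was given above.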

How the data were processed

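Cells were loaded on a Chromium system with a 3′ kit that counts UMIs. Per the labels and the submitters' processing notes, the authors aligned reads to GRCm38 with Cell Ranger (7.0.0 for plaque, 6.1.2 for ligation) and filtered cells with Seurat, by limits that differed between the plaque libraries (the smallest deposited cells had 1531 genes in ApoE-/- and 1056 in Trf2T188A/ApoE-/-). The deposited signal is the UMI count of a gene in a cell scaled to 10000 per cell, on a linear scale. Whole UMIs were recovered from it for 100% of values within 0.01.

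Cells were clustered with Seurat 5.3.0 in R 4.3.3 at the study's settings (plaque 2000 variable genes, 18 components and resolution 0.9; ligation 17 components and 0.2), with the listed collagen and collagen-handling genes left out. A cluster was named from marker lists where at least 3 markers and the mean of the list reached a log2 ratio of 0.5 over the other cells, and the contractile list came first where 2 lists did. These limits were set after seeing the data, and the study chose the markers on these samples, so a difference from the study may come from the rebuilt names. Scrublet (scanpy 1.11.5) called at most 0.323% of cells of a library, too few to have worked, so no doublets were removed, and leaving out the 5% highest scores was an alternative.

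Means per 10000 have exact Poisson intervals, shares exact Clopper-Pearson ones, and log2 ratios, with a pseudocount of 1, delta-method intervals. The ratio understates the change of low genes. Calculations used numpy 2.4.6 and scipy 1.17.1, and the ratio code was tested on simulated data. All 10 members are named, with up to 3 genes of each pathway list at the highest and at the lowest ratios (*Col2a1* in Cluster 8-like cells was added after its values were seen) and the 5 genes most like the summed members. The members, lists and alternatives were chosen with earlier results of these data known, and the added alternatives after seeing the files. Marker genes of other cell types and immediate-early genes were summed per state. Gene positions are those of GENCODE M21.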

Additional observations from a re-analysis of the deposited data

Results flagged for a closer look

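Among the 8 states drawn in the plot of genotype ratios, 4 members had differences past the fold of 0.25 on both sides. The differences between states were not tested, since each rests on 1 library per group. *Col1a1* had a log2 ratio of 0.56 in ligation Cluster 1-like cells and -0.64 in plaque Cluster 8-like cells, a gap of 1.20, and *Col1a2* 0.42 and -0.58 in the same states, a gap of 1.0. *Col3a1* was at 0.73 in ligation Cluster 1-like and -0.29 in ligation Cluster 3-like cells, a gap of 1.02, and *Col14a1* at 0.67 in plaque Cluster 8-like and -0.35 in plaque Cluster 4-like cells, also a gap of 1.02. The *Col3a1* value in Cluster 3-like cells rests on 120 and 79 cells, and the *Col14a1* value in Cluster 4-like cells on 109 and 73. Outside those states, *Col5a2* (-0.37) and *Col8a1* (-0.31) were lower in ligation Endothelial-like cells, of 62 and 65. Both were at 0.45 in ligation Cluster 1-like cells. In the same Endothelial-like cells 3 members were higher, *Col3a1* at 0.72 and 2.25 (0.92), *Col1a1* at 0.24 and 1.28 (0.88) and *Col1a2* at 0.47 and 1.67 (0.86). There 3.58% of tested genes were higher and 4.32% lower (12.4% and 11.8% of abundant genes). The *Col1a1* value rests on 32 control and 190 Trf2T188A UMIs, in cells that should lack this gene. Immediate-early genes summed to 175 and 243 there, with 12 of 16 higher, and median depth was 10407 and 14166 UMIs. Their part in these values was not tested. No alternative processing was run for Endothelial-like cells. *Col3a1* was at 1.33 in plaque Cluster 10-like cells.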

How the results depend on the processing

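Of 28 member values past the fold in all plaque cells, all ligated smooth muscle cells and the 8 states drawn by genotype, all 28 kept their sign under every alternative run and 16 stayed past the fold under each. No alternative was run for the 9 values past the fold in plaque Cluster 3-like, 5-like, 10-like and unnamed cells. The same holds for ligation Endothelial-like and Immune-like cells. Thinned cells, and those left after dropping cells by doublet score or gene number, were clustered and named anew for the genotype ratios. Their classes thus need not hold the same cells. The median over the members, of 0.13 in all plaque cells, was -0.0254 at the control library's class shares, -0.0153 from summed UMIs, 0.21 in thinned cells and 0.16 without cells under 2000 genes, so its direction is not fixed. In plaque Cluster 2-like cells, where it was 0.04, it was 0.11 from mean log2 values, -0.0399 from summed UMIs, 0.0889 in thinned cells and 0.10 without the top doublet scores. In Cluster 4-like cells, where it was 0.14, it was -0.0343 from summed UMIs and 0.29 without cells under 2000 genes. After ligation it was 0.20 at control shares and 0.17 with a pseudocount of 0.1 over all smooth muscle cells, 0.38 (pseudocount), 0.27 (summed) and 0.29 (thinned) in Cluster 1-like and 0.31 (pseudocount) in Cluster 2-like cells. The fold of Cluster 8-like over contractile cells was 8.22 in thinned mutant cells. Within the largest state the median rho was 0.069 and 0.087 in plaque and 0.154 and 0.119 after ligation. A lower clustering resolution gave no plaque Cluster 4-like and no ligation Cluster 2-like class, so those were not run. No paired analysis was possible because each group has 1 library.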
